A study of Homo sapiens with 6 samples.

Results

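The genes described here encode the classical protein tyrosine phosphatases and the PRL phosphatases. They were chosen by symbol: names made of PTPN and a number, PTPR and a letter, or PTP4A, with PTPRCAP left out. This gave 36 of the 15376 coding genes in the deposited table, of which 16 are non-receptor PTPN genes, 17 are receptor-type PTPR genes and 3 are PRL genes (PTP4A). The RNA came from PC9ER, a human lung cancer line (non-small cell type) that the labels describe as driven by EGFR and resistant to gefitinib, an inhibitor of the EGFR kinase. In 3 libraries the cells had received 1 µM gefitinib for the last 6 h, and in 3 control libraries the labels give only the vehicle DMSO. A single treatment text covers all samples, with 72 h of vehicle in place of the Notch inhibitor DBZ and overnight serum withdrawal, after growth in 10% fetal calf serum. It does not say how control cells were handled during the last 6 h or whether they also lacked serum, so drug and serum cannot be told apart as sources of a difference. The labels do not say that replicates were separate cultures, and p-values then measure only the spread between these libraries, which may be technical.

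Protein tyrosine phosphatases remove phosphate from tyrosine residues and so oppose, or in some cases relay, the signals of receptor kinases such as EGFR. Catalytically active members use an active-site loop in which a cysteine attacks the phosphate and an arginine holds it. Receptor-type members span the membrane and often carry adhesion-type outer domains, non-receptor members sit in the cytosol or on inner membranes and are placed by FERM, PDZ, SH2 or proline-rich segments, and PRL phosphatases are small membrane-attached enzymes that bind CNNM magnesium transporters. In epithelial cells several of them, among them PTPRJ, PTPRK, PTPN1, PTPN2 and PTPN12, are known to act on EGFR or its close partners, whereas PTPN11 (SHP2) passes the receptor's signal on to RAS.

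The members fall into subtypes of related genes, and 4 such pairs are shown because their 2 genes moved in opposite directions with gefitinib. That choice was made after the values were seen. The coding sequence of the active-site loop, from GENCODE release 29 transcripts, is given 5′ to 3′ over 33 bases, with the codons of the catalytic cysteine and of the arginine in capitals. For PTPRA and PTPRE, which have 2 such loops, it is the first, in the membrane-proximal domain.
PTPN3: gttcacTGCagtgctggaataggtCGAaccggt
PTPN4: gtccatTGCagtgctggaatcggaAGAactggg
PTPN6: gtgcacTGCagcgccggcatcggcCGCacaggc
PTPN11: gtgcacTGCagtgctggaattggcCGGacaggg
PTPN12: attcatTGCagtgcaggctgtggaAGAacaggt
PTPN18: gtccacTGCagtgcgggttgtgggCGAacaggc
PTPRA: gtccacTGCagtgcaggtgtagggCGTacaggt
PTPRE: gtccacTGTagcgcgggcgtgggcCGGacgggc
The loops of PTPN3 and PTPN4 shared 26 of 33 bases, those of PTPN6 and PTPN11 shared 27, those of PTPN12 and PTPN18 shared 25 and those of PTPRA and PTPRE shared 24.

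Gefitinib libraries held 13674237 to 38581498 coding reads and control libraries 16211544 to 25639050. Epithelial markers were abundant in both groups: EPCAM, CDH1 and 4 keratin genes summed to between 67726 and 70679 normalized reads with gefitinib and between 81344 and 116558 in control, with 1 of 6 higher and 5 lower. Lung lineage genes were low: NAPSA and SFTPB summed to 25.1 to 32.8 and 24.7 to 32.4. Of the blood markers SPI1 was at 0 in 5 of 6 libraries. The blood list summed to 254 to 291 with gefitinib and 150 to 287 in control, most of it ITGB2. Of its 6 genes 1 was called higher and none lower. The higher gene was CD14, at 7.12 ± 2.30 with gefitinib and 0.322 ± 0.557 in control (SD, n = 3 each). Endothelial markers summed to 147 to 169 with gefitinib and 1176 to 1349 in control, almost all of it PECAM1. Neuroendocrine markers, most of it NCAM1, summed to 291 to 326 and 174 to 189, and fibroblast markers to 47.6 to 68.0 and 31.7 to 71.4. The part of these shifts in the results below was not tested. Control replicate 1 stood apart from the other control libraries, and the members this touches are described further on.

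Of the 35 phosphatase genes with a read in any library, 11 rose with gefitinib, 6 fell and 18 did not pass the test (limma-trend on log2(value + 1), Benjamini-Hochberg adjusted p under 0.05 over all genes tested). Over all 15229 genes tested, 28.3% were called higher and 22.8% lower, or 51.1% in either direction, so the share of phosphatase genes that changed was near the background. The median log2 difference of the phosphatase genes was -0.03, against 0.10 over all genes. With a mean of 90 normalized reads or more required, the medians were 0.036 for members and 0.057 for all genes. Among receptor-type genes 4 rose and 3 fell of 17, among non-receptor genes 7 rose and 3 fell of 15, and no PRL gene of 3 passed. In 20 of the 35 members the groups were free of overlap, 11 with all gefitinib values above control and 9 with all below. Over all genes tested the share was 58% (32.3% above and 25.7% below). PTPN22 and PTPRR count among the 20 only through scaling, since their closest gefitinib and control libraries each held 1 read. A mean of 90 normalized reads or more was reached by 26 members; 10 of these rose and 5 fell, where 33.2% and 28.6% of genes at that level were called, 61.8% in all. edgeR on the recovered reads called 10 higher and 6 lower of the 27 members it tested, against 30.5% and 30.8% of genes, 61.3% in all. With the dependence on GC content removed, an alternative chosen after seeing the data, 11 rose and 11 fell, against 30.8% and 28.8% of all genes, 59.6% in all, so the balance of rises and falls depended on this choice.

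**Figure D1:**
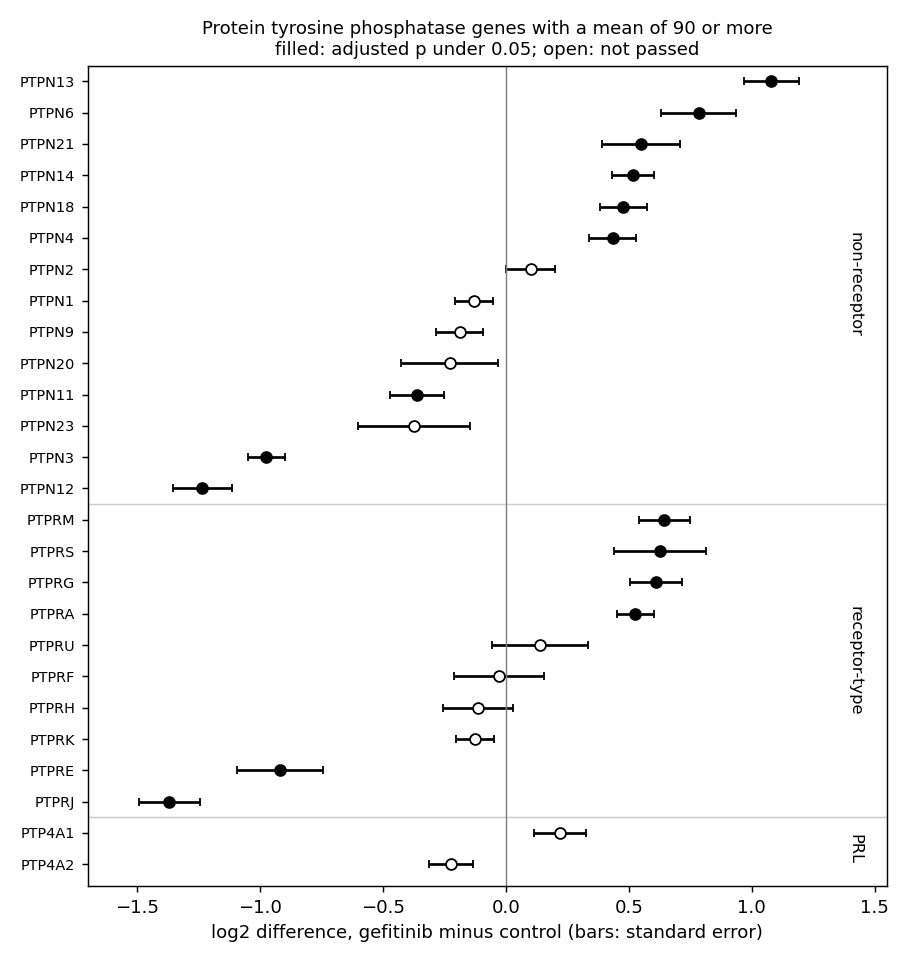
Log2 difference, gefitinib minus control, with its standard error (n = 3 libraries a group), for the 26 members with a mean of 90 or more; filled points passed the test and open points did not. PTPRJ at -1.37 and PTPN13 at 1.08 mark the ends, and each of the receptor-type and non-receptor groups has members on both sides of 0.

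PTPRJ and PTPN12, the genes of 2 phosphatases known to act on EGFR and on adhesion signalling, were the only members with a mean of 90 or more that fell below a level of 0.5 times control. PTPRJ (DEP-1; chromosome 11, 47980558 to 48170841, GRCh38) encodes a receptor-type phosphatase of growth factor receptors. It had 503, 442 and 379 normalized reads in gefitinib libraries 1, 2 and 3, against 1049, 1127 and 1231 in control libraries 1, 2 and 3. Every gefitinib library was below every control library, and the log2 difference was -1.37 ± 0.13 (SE; limma adjusted p = 2.61e-05).

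PTPN12 (PTP-PEST; chromosome 7, 77537275 to 77640071) encodes a cytosolic phosphatase of the adhesion proteins p130Cas and paxillin. It had 2428, 2232 and 2142 normalized reads with gefitinib, against 6408, 5149 and 4591 in control, the highest control value being replicate 1. The groups were far apart, with a log2 difference of -1.23 ± 0.12 (limma adjusted p = 3.59e-05). Paxillin's own gene, PXN, fell too, at 1426 ± 60.4 normalized reads with gefitinib and 2729 ± 359 in control (SD, n = 3 each), whereas BCAR1, the gene of p130Cas, had a log2 difference of 0.26 (limma adjusted p = 0.574); both were named after their values were seen.

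PTPN3 (PTPH1; chromosome 9, 109375466 to 109498313), a FERM and PDZ domain phosphatase, had 1033, 1056 and 1023 normalized reads with gefitinib, against 2032, 2033 and 2050 in control. The libraries of each group lay close together, with SDs of 16.5 and 10.5, and the log2 difference was -0.97 ± 0.08 (limma adjusted p = 9.76e-06). PTPRE (chromosome 10, 127907061 to 128085855), a receptor-type phosphatase known to activate Src family kinases, had 122, 115 and 95.2 with gefitinib, against 188, 222 and 218 in control. Its groups did not overlap, and it fell by 0.92 ± 0.18 on the log2 scale (limma adjusted p = 0.00199). The calls for PTPRJ, PTPN12, PTPN3 and PTPRE held in all 17 alternatives.

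PTPN11 (SHP2; chromosome 12, 112418351 to 112509913), the SH2 domain phosphatase that relays receptor signals to RAS, had 4340, 3535 and 3497 normalized reads with gefitinib, against 5373, 4799 and 4411 in control. Replicate 1 was the highest library in each group, and gefitinib replicate 1 came close to control replicate 3. The log2 difference of -0.36 ± 0.11 passed the test (limma adjusted p = 0.0202), but the call was lost without gefitinib replicate 2, without gefitinib replicate 3 or without control replicate 2, and the adjusted p ranged from 0.000354 to 0.0922 over the alternatives. Exons of PTPN11 overlap RPL6 on the opposite strand over 111 bases, and whether counting used strand is not stated.

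The largest rise among members with a mean of 90 or more was that of PTPN13 (chromosome 4, 86594315 to 86815171), a large FERM and PDZ domain scaffold phosphatase known to bind the death receptor Fas. It had 858, 876 and 931 normalized reads with gefitinib, against 412, 378 and 473 in control. Every gefitinib library held more than any control library, at a log2 difference of 1.08 ± 0.11 (limma adjusted p = 5.64e-05). MAPK10 overlaps its exons on the opposite strand over 311 bases.

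PTPN6 (SHP1; chromosome 12, 6946468 to 6961316), an SH2 domain phosphatase best known as an inhibitor of signalling in blood cells, rose by 0.78 ± 0.15 on the log2 scale (limma adjusted p = 0.00214). Its values were 817, 865 and 908 normalized reads with gefitinib, against 389, 562 and 571 in control. Control replicate 1 was the low library; without it the log2 difference was 0.60 and the call held. In the same cells PTPRC, the gene of the blood cell phosphatase CD45, had 1 read in all gefitinib libraries together and 1 in all control libraries, and PTPN7, a phosphatase gene of lymphoid cells, had none. PTPN22, also a lymphoid phosphatase gene, had 19 reads in all gefitinib libraries and 1 in all control libraries and was called higher, as described below.

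Among the other non-receptor genes that rose were PTPN14 and PTPN21, which encode related FERM domain phosphatases, PTPN14 being known to bind YAP. PTPN14 averaged 1560 ± 99.2 normalized reads with gefitinib and 1089 ± 40.0 in control (SD, n = 3 each), and PTPN21 averaged 311 ± 27.8 and 213 ± 31.5. Exons of PTPN14 overlap a pseudogene, and those of PTPN21 the gene SPATA7, on the opposite strand. PTPN14 passed in every alternative, while PTPN21 (limma adjusted p = 0.0170) lost its call without gefitinib replicate 2 and without control replicate 3. PTPN18, a relative of PTPN12 known to act on HER2, averaged 875 ± 48.4 with gefitinib and 628 ± 34.4 in control, and PTPN4, the closest relative of PTPN3, averaged 1278 ± 42.4 and 948 ± 89.8. Both rose, by 0.48 ± 0.10 and 0.43 ± 0.10 on the log2 scale.

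Of the receptor-type genes that rose, PTPRM encodes a phosphatase whose outer part binds the same molecule on neighbouring cells. It averaged 1332 ± 144 normalized reads with gefitinib and 848 ± 31.9 in control (SD, n = 3 each), a log2 difference of 0.65 ± 0.10. PTPRG, which carries a carbonic anhydrase-like outer domain, averaged 568 ± 16.4 and 372 ± 17.2, a log2 difference of 0.61 ± 0.11. PTPRA, known to activate Src by removing its inhibitory phosphate, averaged 2738 ± 129 and 1900 ± 47.1, a log2 difference of 0.53 ± 0.08. PTPRS, a receptor for heparan and chondroitin sulfate chains, had 906, 911 and 974 with gefitinib, against 445, 608 and 807 in control. These groups did not overlap, but control values were spread widely, and the call (limma adjusted p = 0.0194) was lost without gefitinib replicate 1, 2 or 3 or control replicate 2, with an adjusted p of up to 0.0628. PTPRM, PTPRG and PTPRA passed in every alternative. PTPRM exons overlap an antisense gene over 101 bases, PTPRG exons the antisense gene PTPRG-AS1, and PTPRA exons VPS16 on the same strand. Reads in these overlaps may have been added to the counts of PTPRM, PTPRG and PTPRA or left out of them, which was not tested.

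**Figure D2:**
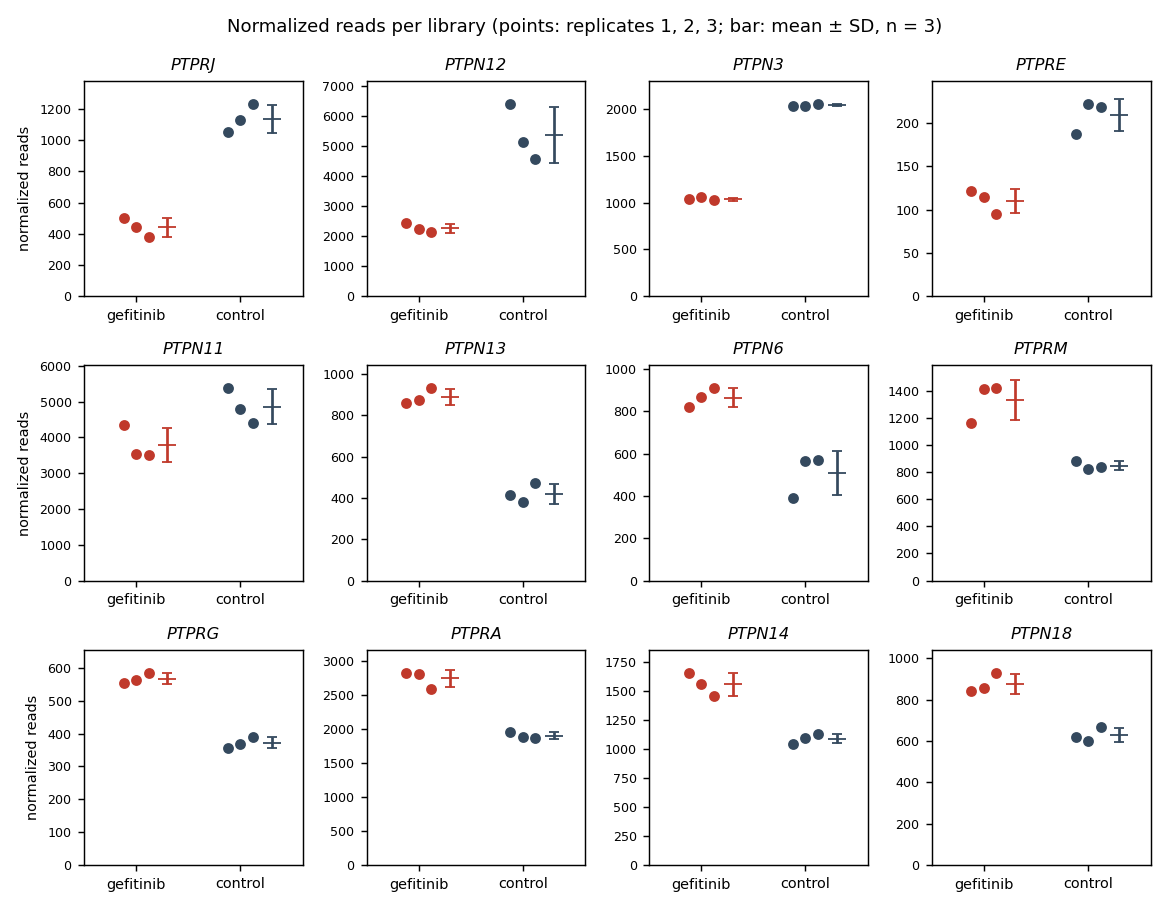
Normalized reads per library for 12 called members, gefitinib on the left and control on the right of each panel, with the mean and SD (n = 3) beside the points and axes that start at 0. The points of the groups are apart in each of the 12 panels, with the narrowest gap for PTPN11.

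Several phosphatases known to act on EGFR did not pass the test. PTPRK, an adhesion-type phosphatase reported to dephosphorylate EGFR, had 7311, 6685 and 6705 normalized reads with gefitinib, against 7993, 7142 and 7473 in control (log2 difference -0.13 ± 0.08, limma adjusted p = 0.205). PTPN1 (PTP1B), the phosphatase of the endoplasmic reticulum that acts on the insulin receptor and EGFR, had 2165, 2238 and 2158, against 2270, 2367 and 2545 in control (-0.13 ± 0.08, limma adjusted p = 0.197). The groups of PTPN1 did not overlap, those of PTPRK did, and both genes were called lower with the GC trend removed (adjusted to 0.0376 for PTPN1 and 0.00978 for PTPRK, limma).

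PTPN2 (TC-PTP), which acts on JAK kinases, STAT proteins and EGFR, had 1308, 1193 and 1219 normalized reads with gefitinib, against 1292, 1130 and 1056 in control, with overlapping groups (log2 difference 0.10 ± 0.10, limma adjusted p = 0.431). PTPN9, a phosphatase of secretory vesicles, had 812, 957 and 881, against 1014, 978 and 1022 in control. All gefitinib values of PTPN9 were below control, but the difference of -0.19 ± 0.09 did not pass (limma adjusted p = 0.127); once the GC trend was taken out it did (0.0302).

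The adhesion-type genes PTPRF and PTPRU, and PTPN23, whose product helps to sort EGFR into lysosomes, had 1 control library, replicate 1, far below the other controls. PTPRF, the LAR phosphatase gene and the most abundant of the LAR type, had 7523, 7675 and 7851 normalized reads with gefitinib, against 5540, 8666 and 10027 in control. Control replicate 1 was below and the other control libraries above all gefitinib libraries (log2 difference -0.03 ± 0.18, limma adjusted p = 0.908). Without control replicate 1 PTPRF was called lower, at -0.28 (limma adjusted p = 0.00662; its highest value in any alternative was 0.966). PTPN23 had 403, 408 and 388 with gefitinib, against 341, 592 and 688 in control. It did not pass (limma adjusted p = 0.204), and was called lower at -0.67 without control replicate 1 (limma adjusted p = 0.000447) and at -0.39 with the GC trend removed (0.00478). It was also called lower by edgeR without the count filter (adjusted p = 0.0482) and by DESeq2 (adjusted p = 0.0340). PTPRU had 1517, 1371 and 1456, against 909, 1524 and 1638 in control, and did not pass in any alternative. PTPRH, a receptor-type phosphatase of epithelia, and PTPN20 also had overlapping groups, at 261 ± 25.4 and 282 ± 25.0 for PTPRH and 164 ± 27.3 and 192 ± 35.1 for PTPN20.

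Among members with a mean of 90 or more, the 5 in which control replicate 1 lay lowest, at -0.54 to -0.90, were rich in G and C. Over the 7 members with a mean of 90 or more and a GC content of 55% or more, control replicate 1 differed from the mean of replicates 2 and 3 by a median of -0.65 on the log2 scale, with a range from -0.90 to -0.04; over the 19 members of lower GC content the median was 0.09. The same medians over all genes of that level were -0.53 and 0.12. Across these 26 members, which share their libraries and are not independent, Spearman's rho between GC content and this departure was -0.82 (Pearson's r -0.86), and for gefitinib replicate 1 the rho was -0.46 (r -0.43). The part of base composition in each result was not tested beyond removing its trend.

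**Figure D3:**
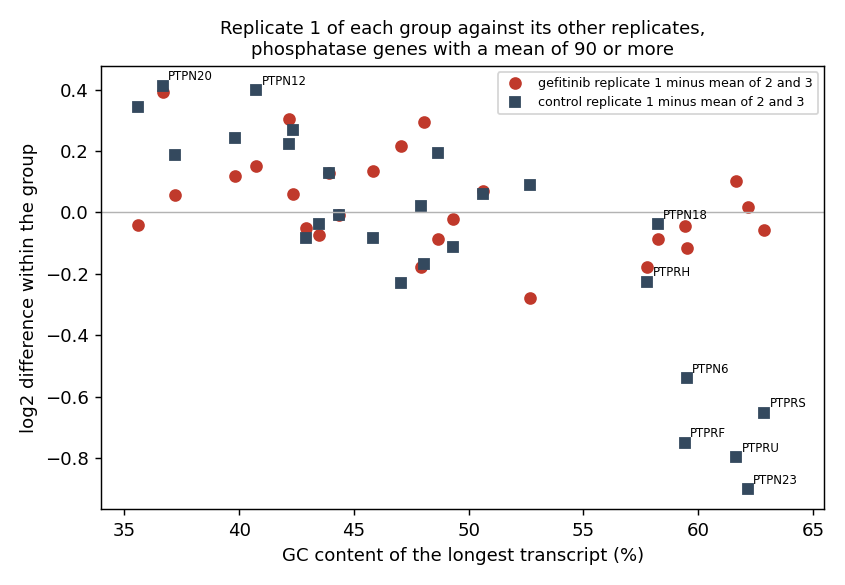
Log2 difference of replicate 1 from the mean of replicates 2 and 3 of its own group against the GC content of the longest transcript (%), a point for each of the 26 members with a mean of 90 or more, gefitinib as circles and control as squares. The control squares drop to between -0.54 and -0.90 for PTPN6, PTPRS, PTPRF, PTPRU and PTPN23, while the gefitinib circles of the 7 GC-rich members stay between -0.18 and 0.10.

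PRL phosphatase genes did not pass the test, while 2 of the 3 CNNM partner genes tested rose. PTP4A2, the most abundant member of all, had 11216, 10703 and 10811 normalized reads with gefitinib, against 14409, 12074 and 11872 in control. Its groups did not overlap, and the log2 difference of -0.22 ± 0.09 missed the threshold (limma adjusted p = 0.0637) but was called lower in 9 of the 17 alternatives, among them TMM factors and edgeR. PTP4A1 had 2997, 3144 and 3025, against 3074, 2547 and 2303 in control (limma adjusted p = 0.115), and without control replicate 1 it was called higher (limma adjusted p = 0.00193). Its exons share 4170 bases with a gene model on the same strand and it has 7 named pseudogenes, so its count is uncertain. PTP4A3 had only 49 reads in all gefitinib libraries and 43 in all control libraries, a depth-corrected ratio of 0.955 with an exact 95% interval from 0.621 to 1.47 that covers counting error only. Of the CNNM genes, whose products PRL phosphatases bind, CNNM4 averaged 8362 ± 526 normalized reads with gefitinib and 1672 ± 156 in control (SD, n = 3 each; log2 difference 2.32 ± 0.09, limma adjusted p = 6.23e-07). CNNM3 averaged 862 ± 4.58 and 522 ± 68.1 and also rose, and CNNM2 had a difference of 0.16 (limma adjusted p = 0.302); these 2 were named after their values were seen.

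Few reads came from the other 9 members with a mean under 90. PTPN22, a lymphoid phosphatase gene, had 1, 11 and 7 reads in gefitinib libraries 1, 2 and 3, against 1, 0 and 0 in control, a depth-corrected ratio of 15.9 with an exact 95% interval from 2.53 to 662. PTPRR, which encodes a phosphatase of the MAP kinase ERK, had 0, 1 and 0 reads with gefitinib, against 9, 2 and 1 in control, a ratio of 0.0699 with an interval from 0.00163 to 0.472. These intervals cover counting error only. Exons of PTPN22 overlap an antisense gene over 105 bases, and those of PTPRR a pseudogene on the opposite strand over 137 bases. PTPN22 passed the test (limma adjusted p = 0.0176) but not in DESeq2 or without gefitinib replicate 2 or control replicate 2. PTPRR passed narrowly (0.0428), and its call was lost in 7 of 14 alternatives, among them DESeq2, a pseudocount of 5 and the libraries without control replicate 1, which held 9 of its 12 control reads. PTPRB had 7 and 5 reads, PTPRQ 5 and 5, PTPRC 1 and 1, PTPRD 1 and 0, PTPRZ1 0 and 4 and PTPRT 0 and 2 in all gefitinib and all control libraries, and PTPN7 had none; no difference was detectable for these genes at this depth.

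In 4 pairs of related genes the 2 genes were called in opposite directions. Of all genes with a mean of 90 or more, 33.2% were called higher and 28.6% lower. The share of opposite calls among pairs of genes in general was not measured. Pairs, 10 in number, were formed within published subtypes after the values were seen, and the log2 ratio of the pair was taken in each library. This takes out any scaling of the library, but not a dependence on GC content where the 2 genes differ in it. PTPN3 over PTPN4 was -0.34, -0.22 and -0.34 in gefitinib libraries, against 0.98, 1.08 and 1.27 in control libraries. The GC contents of PTPN3 and PTPN4 were 44.3% and 37.2%. Without correction for gene length, PTPN3 had more reads in control and PTPN4 more with gefitinib. Per kilobase of exon, PTPN3 and PTPN4 stood at 104 ± 1.65 and 102 ± 3.39 with gefitinib, and at 204 ± 1.05 and 75.9 ± 7.19 in control (SD, n = 3 each). PTPN12 over PTPN18 was 1.53, 1.38 and 1.20 with gefitinib, against 3.38, 3.10 and 2.78 in control. The difference of -1.71 was -1.57 without control replicate 1, and the GC contents of PTPN12 and PTPN18 were 40.8% and 58.2%. PTPRA over PTPRE was 4.53, 4.60 and 4.75, against 3.37, 3.08 and 3.09 in control. Read with the single-gene calls, PTPN3, PTPN12 and PTPRE fell while PTPN4, PTPN18 and PTPRA rose.

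PTPN6 over PTPN11, the SHP1 to SHP2 ratio, was -2.41, -2.03 and -1.95 with gefitinib, against -3.78, -3.09 and -2.95 in control. The difference of 1.15 was 0.89 without control replicate 1, and the GC contents of PTPN6 and PTPN11 were 59.5% and 42.2%. PTPN14 over PTPN21 did not differ beyond its spread, at a mean of 2.33 ± 0.14 with gefitinib and 2.36 ± 0.27 in control (SD, n = 3 each), with overlapping groups; both genes had risen. The groups also overlapped for PTPN1 over PTPN2, at 0.82 ± 0.09 and 1.05 ± 0.23. PTPRF over PTPRS, PTPRK over PTPRM, PTPRH over PTPRJ and PTP4A1 over PTP4A2 differed by -0.65, -0.77, 1.25 and 0.44 with no overlap. The GC contents in these pairs were 59.4% and 62.9%, 43.9% and 52.7%, 57.8% and 48.0%, and 35.6% and 42.3%. The count of PTP4A1 is uncertain, as described above. An exact 2-sided permutation test of 3 libraries against 3 cannot go below p = 0.1, which 8 of the 10 pairs reached (0.125 adjusted over the 10 pairs), so the test cannot pass the threshold in this design. For PTPN3/PTPN4, PTPN6/PTPN11, PTPN12/PTPN18 and PTPRA/PTPRE the lack of overlap was fixed in advance. Each of these pairs joins a gene with all gefitinib values above control to a gene with all below. Among single genes 58% had groups free of overlap, and the share for pairs of genes in general was not measured.

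**Figure D4:**
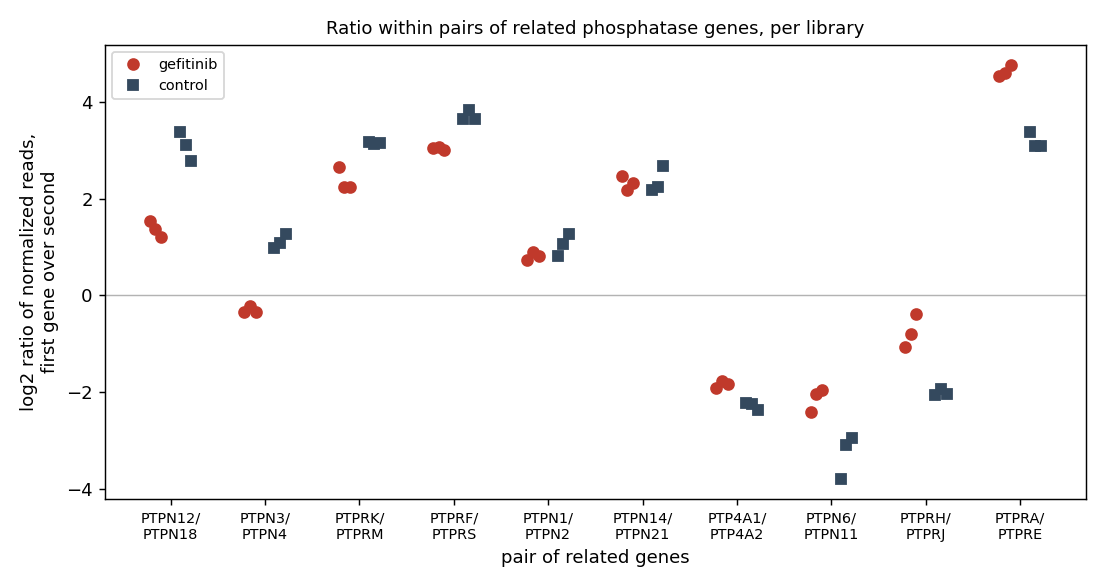
Log2 ratio of normalized reads within 10 pairs of related phosphatase genes, first gene over second, a point per library, gefitinib on the left and control on the right of each pair. The points are apart for 8 pairs and overlap for PTPN1/PTPN2 and PTPN14/PTPN21. PTPN3/PTPN4 lies on opposite sides of 0 in the 2 groups, on ratios not corrected for gene length.

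Levels were compared between members as normalized reads per kilobase of exon. With gefitinib PTP4A2 was the highest at 1624 ± 40.2 per kilobase, followed by PTPRK at 767 ± 39.6, PTPRF at 717 ± 15.3, PTPRA at 613 ± 28.9 and PTP4A1 at 579 ± 14.8, and in control the order was PTP4A2 at 1903 ± 210, PTPN12 at 970 ± 168, PTPRK at 837 ± 47.6, PTPRF at 754 ± 215 and PTPN11 at 692 ± 68.9 (SD, n = 3 each). PTPN12 stood at 409 ± 26.4 per kilobase with gefitinib, below PTPN1 at 541 ± 10.9 and PTPN11 at 540 ± 67.7. The ranges of mean ± SD of PTPRK, PTPRF and PTPN11 in control overlapped those of their neighbours in this order. With gefitinib the ranges of PTPRK and PTPRF also overlapped, as did those of PTPRA and PTP4A1. The place of PTP4A1 is uncertain because of the shared exons and pseudogenes described above. At the low end of the 26, PTPRE had 9.84 ± 1.22 with gefitinib and 18.6 ± 1.68 in control. PTP4A2, PTPRK, PTPRF, PTPN12 and PTPN11 made up 57.5% to 59.3% of the normalized reads of all members with gefitinib and 64.6% to 66.5% in control. All members together took 0.296% to 0.306% of coding reads with gefitinib and 0.323% to 0.330% in control.

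**Figure D5:**
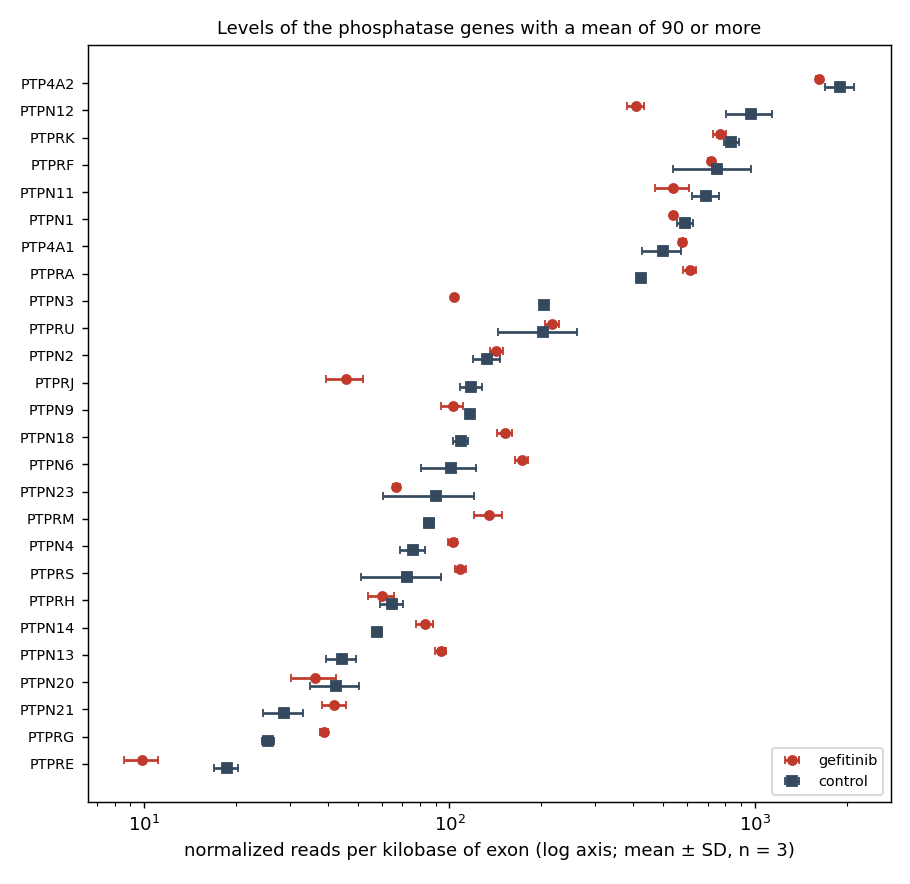
Normalized reads per kilobase of exon on a log axis, mean ± SD (n = 3), for the 26 members with a mean of 90 or more in the order of the control level, gefitinib as circles drawn above control squares. PTP4A2 is highest in both groups, and PTPN12, PTPN3 and PTPRJ show circles well to the left of their squares.

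Genes whose products recruit these phosphatases or serve as their substrates changed in both directions. Of 13 recruiters and substrates of non-receptor phosphatases tested, 6 rose, 4 fell and 3 did not pass, where 28.3% of all genes rose and 22.8% fell. IRS1, a docking protein of the insulin receptor that binds SHP2, averaged 115 ± 9.73 normalized reads with gefitinib and 1181 ± 168 in control (SD, n = 3 each), and GAB2, a docking protein that carries SHP2 to receptors, averaged 246 ± 24.8 and 762 ± 48.6. FRS2, the docking protein of FGF receptors that binds SHP2, went the other way, at 2262 ± 38.5 with gefitinib and 759 ± 65.1 in control. GAB1, the main SHP2 docking protein at EGFR, was called higher, at 810 ± 92.9 and 606 ± 57.8 (limma adjusted p = 0.0180), a call lost without gefitinib replicate 2 or 3 or control replicate 2 or 3 (up to 0.0914); GAB1 and GAB2 were named after their values were seen.

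Of 18 ligands and inner partners of receptor-type phosphatases tested, 2 rose, 5 fell and 11 did not pass, against the same shares over all genes. THBS1, which encodes thrombospondin, a reported ligand of PTPRJ, averaged 701 ± 151 normalized reads with gefitinib and 4192 ± 63.0 in control (SD, n = 3 each). TRIO, a guanine nucleotide exchange factor that binds LAR, averaged 1838 ± 16.8 and 4758 ± 428, and the liprin gene PPFIA1, whose product also binds LAR, 4750 ± 371 and 3263 ± 28.2. SLITRK1, a synaptic ligand gene of PTPRS and PTPRD, was low in both groups, at 5.45 ± 1.65 and 35.7 ± 3.82. TRIO, PPFIA1 and SLITRK1 were named after their values were seen. With the 3 CNNM genes, 10 of 34 partners rose and 9 fell, shares close to the 28.3% and 22.8% over all genes.

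Promoter sequence is shown for 3 called members with a RefSeq entry, a mean of 90 or more and large differences: PTPN12 and PTPN3, which fell, and PTPN13, which rose. Each line gives the 250 bases before the start (RefSeq, GRCh38.p14, gene strand, 5′ to 3′), and capitals mark matches to the motifs searched. PTPN12 is at chr7:77537793-77538042 (plus strand), PTPN3 at chr9:109498308-109498557 (minus strand) and PTPN13 at chr4:86594065-86594314 (plus strand). The PTPN12 window lies inside the GENCODE bounds of the gene.
PTPN12: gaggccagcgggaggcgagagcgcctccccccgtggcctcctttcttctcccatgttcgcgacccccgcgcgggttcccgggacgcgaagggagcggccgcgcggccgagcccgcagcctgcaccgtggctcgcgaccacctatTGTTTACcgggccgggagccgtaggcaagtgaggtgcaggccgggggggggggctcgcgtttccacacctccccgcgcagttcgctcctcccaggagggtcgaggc
PTPN3: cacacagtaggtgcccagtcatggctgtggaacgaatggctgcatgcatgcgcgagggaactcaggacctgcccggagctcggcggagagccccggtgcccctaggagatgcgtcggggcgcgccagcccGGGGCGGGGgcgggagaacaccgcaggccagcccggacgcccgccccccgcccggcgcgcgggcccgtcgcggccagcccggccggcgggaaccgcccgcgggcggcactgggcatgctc
PTPN13: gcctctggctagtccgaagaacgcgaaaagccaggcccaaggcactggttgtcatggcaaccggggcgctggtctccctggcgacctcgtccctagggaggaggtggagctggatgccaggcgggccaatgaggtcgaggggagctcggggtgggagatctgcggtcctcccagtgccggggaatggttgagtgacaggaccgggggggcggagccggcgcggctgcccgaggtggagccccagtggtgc
Letters were searched on both strands in 11509 tested genes and 30 members with a promoter entry, any entry of a gene counting. The FOXO letters GTAAACA were found in 1 member, PTPN12, and in 3.04% of genes. The GC box GGGGCGGGG was found in 9 members and in 30.4% of genes, and the E-box CACGTG in 2 members, PTPN3 and PTPRS, and in 10.6%. The AP-1 letters TGANTCA were found in 1 member (PTPN9) and 6.76% of genes, the ETS letters CCGGAAGT in 1 (PTPN23) and 7.21%, and the CRE TGACGTCA in 2 (PTPRS and PTPRU) and 3.09%. The CACGTG of PTPN3 lies before another of its starts. No 2 of the marked matches overlap, and a match is a description of these letters only.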

How the data were processed

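Messenger RNA of 3 gefitinib and 3 control libraries was measured. STAR, HTSeq and GRCh38 are named, without versions, in the submitters' processing notes; whether counting used strand is not stated there. In the deposited table the unit is a signal: counts per gene, which the authors had brought to a common total of 18085800. Within 0.01 read, 100% of values above 0 were whole multiples of a step in their library, and these multiples were taken as reads. Another table has 6 sample columns that match no label and were not used, apart from gene IDs and positions; 34 of 36 members have the GENCODE 29 start there.

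The 2-sided test was limma-trend (limma 3.58.1 in R 4.3.3) with a pseudocount of 1 before the log2 step, over 15229 genes after 147 at 0 were left out, with a threshold of 0.05. Each log2 difference sets gefitinib over control; the pseudocount makes changes of low genes look smaller. The test was also tried on simulated data. The members and lists were chosen with earlier results of these data known. Named members are those called with a mean of 90 or more and an absolute log2 difference of 0.8 or more. Those acting on EGFR or its pathway are named too. The rest are given in groups, and exceptions outside the phosphatases are marked. PTPRS, PTPRF, PTPN23, PTPRU, PTP4A1, PTP4A2 and PTPN22 are given by library outside this rule, after their values were seen. Of each list outside the phosphatases, up to 4 called genes of smallest p were to be named; some items are not reported here. Alternatives were pseudocounts of 0.5 and 5, a mean of 10 or more, TMM and DESeq2 1.42.0 size factors, edgeR 4.0.16 with and without a count filter, limma-voom and DESeq2 on those reads, a replicate block, leaving out each library and, added after seeing the data, removal of the GC trend (loess, span 0.3). Within each group, every pair of libraries differed by more than sampling noise.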

Additional observations from a re-analysis of the deposited data

How the results depend on the processing

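Of the 17 called phosphatase genes, 12 kept their call in every alternative that tested them, and of the 18 that did not pass, 11 were called in none. No called gene changed direction. With the GC trend removed, 11 phosphatase genes and 6 non-receptor genes were called lower, against 6 and 3 in the reported test; the cause was not tested. A PRL gene, PTP4A2, was called lower (1 gene) with TMM factors, DESeq2 size factors, edgeR with or without the count filter, DESeq2, limma-voom, the replicate block and the GC trend removed. Leaving out a library gave 0 to 1 PRL genes higher and 0 to 1 lower, 4 to 8 non-receptor kinases lower and 1 to 5 other tyrosine-directed phosphatases lower. The last count was 2 in the reported test, 5 with TMM factors, DESeq2 size factors, edgeR with the count filter, limma-voom or the GC trend removed, and 4 with edgeR without the filter or DESeq2; the cause was not tested. Deviations of same-numbered libraries correlated at 0.155, 0.0860 and 0.134 over 10764 genes, and those of differently numbered libraries at -0.165 to 0.138. Replicate numbers were not taken to pair libraries, and these values do not settle whether they do. With the replicate block 11 phosphatase genes were higher and 6 lower, PTPRR (limma adjusted p = 0.0551) having lost its call and PTP4A2 gained one. Low depth limits the members with few reads, and 3 libraries a group limit every test.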

Other observations

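Other enzymes that remove or add phosphate on tyrosine changed with gefitinib in both directions. Of 19 other tyrosine-directed phosphatases tested, 6 rose, 2 fell and 11 did not pass, where 28.3% of all genes rose and 22.8% fell; 5 were lower under TMM factors, against 24.9% of all genes. UBASH3B, which encodes a phosphatase of the UBASH3 family known to act on receptor and SYK-type kinase signalling, averaged 2745 ± 127 normalized reads with gefitinib and 13819 ± 309 in control (SD, n = 3 each; log2 difference -2.33 ± 0.07, limma adjusted p = 2.07e-07), a change larger than that of any phosphatase gene of the report with a mean of 90 or more. CDC14A averaged 540 ± 112 with gefitinib and 126 ± 21.2 in control, and CDC25C, which activates the mitotic kinase CDK1, averaged 1187 ± 17.7 and 615 ± 47.4. Both rose.

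Of 27 non-receptor tyrosine kinases tested, 7 rose, 7 fell and 13 did not pass. PTK2, the focal adhesion kinase gene, fell to 3481 ± 296 normalized reads with gefitinib, against 6561 ± 327 in control. FYN, a Src family kinase gene, rose to 1294 ± 46.7, against 712 ± 56.2, TNK1 to 506 ± 55.1, against 183 ± 42.2, and TEC to 351 ± 20.9, against 167 ± 7.94. Shares of 25.9% higher and 25.9% lower lie near the 28.3% and 22.8% over all genes.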
